A study of Rattus norvegicus with 9 samples.

Results

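The 6 genes described here handle heme and iron, and were measured in rat brain after a treatment labelled Nano-patrol+NIR, rt-PA or saline. They are Hmox1 (ENSRNOG00000014117), Hmox2 (ENSRNOG00000003773), Hp (ENSRNOG00000014964), Cp (ENSRNOG00000011913), Tfrc (ENSRNOG00000001766) and Fth1 (ENSRNOG00000022619), 6 of the 32623 Ensembl rat genes in the table. They were chosen by identifier as a functional group, without use of their values in the choice rule. The table lists identifiers alone, and the reference gene table used here pairs 0 of its 47357 genes with an Ensembl identifier. The symbols are therefore those of the group's definition and were not checked against an annotation.

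All animals first underwent modelling, of a kind left unnamed in the labels, and brain tissue was taken 3 days after an injection given 4.5 h after that step. One group received Nano-patrol+NIR, which the labels describe no further than a nanodrug. A second is titled rt-PA (recombinant tissue plasminogen activator, an enzyme that starts the breakdown of clots), although its count columns are named uk, a difference that was not resolved. The third received saline, and each group had 3 libraries of poly(A)-selected RNA. Strain, age, brain region and hemisphere are not given in the sources used, nor was a group without the modelling step analysed here. No measure of bleeding and no hemoglobin gene could be identified among the data used, so bleeding itself was not assessed.

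When red cells break down in tissue, free hemoglobin is bound by haptoglobin (Hp), a plasma protein, and heme is opened by heme oxygenases into biliverdin, carbon monoxide and iron. Heme oxygenase 1 (Hmox1) is the inducible form, switched on by heme and oxidative stress in microglia, macrophages and other cells, and heme oxygenase 2 (Hmox2) is the constitutive form that predominates in neurons. Iron enters cells through the transferrin receptor (Tfrc), is stored in ferritin, whose heavy chain is Fth1, and leaves with the help of ceruloplasmin (Cp), a copper enzyme that oxidises iron and is made by astrocytes in the brain.

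Library totals ran from 13059048 to 14992109 counts. Saline 1, rt-PA 3 and Nano-patrol+NIR 3 each stood apart from the other libraries of their group. Their log2 CPM (log2 of counts scaled to a common library total) correlated across the tested genes with those libraries at 0.8962 to 0.9441, whereas the remaining pair in each group correlated at 0.9836 to 0.9903.

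Hmox1 was far higher in rt-PA 1 and rt-PA 2 than in any other library, while rt-PA 3 lay at the level of saline. Cp was higher in all 3 rt-PA libraries than in any of the 3 saline ones, and Tfrc was lower in every Nano-patrol+NIR library than in any saline library. Of all tested genes, 19.5% and 14.5% were without overlap in those comparisons, in that order and in either direction. Hmox2 and Hp overlapped between all groups, and Fth1 was listed at 0 in all 9 libraries. None of these differences passed the threshold of the test fitted across all genes, an edgeR quasi-likelihood test with a Benjamini-Hochberg adjusted p under 0.05.

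Hmox1 held 90, 65 and 108 counts in Nano-patrol+NIR 1, 2 and 3. In rt-PA 1, 2 and 3 it held 1614, 2063 and 98 counts. In saline 1, 2 and 3 it held 119, 76 and 82 counts. The high values were those of rt-PA 1 and rt-PA 2, and the other 7 libraries lay close together. Scaled to CPM, Hmox1 stood at 6.72, 4.93 and 7.52 CPM in the Nano-patrol+NIR libraries, at 125, 157 and 6.82 CPM in rt-PA, against 8.08, 5.86 and 5.83 CPM in saline. rt-PA 1 held 15.4 times the Hmox1 level of saline 1, the highest of the remaining 7 libraries, so the rt-PA and saline groups overlapped through rt-PA 3 alone. Means in CPM were 6.39 ± 1.33 with Nano-patrol+NIR, 96.2 ± 79.1 with rt-PA, and 6.59 ± 1.29 with saline (± SD, n = 3 each). In bulk tissue, more RNA per cell and more cells of a type that expresses a gene cannot be told apart.

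Hmox1 differed between rt-PA and saline by 3.87 on the log2 scale (SE 0.90, unadjusted p = 0.00217, edgeR adjusted p = 0.110), a 14.6-fold difference with a 95% interval of 3.52 to 60.3. Nano-patrol+NIR set against rt-PA gave -3.91 (SE 0.90, edgeR adjusted p = 0.188). The difference between Nano-patrol+NIR and saline was -0.04 (SE 0.84, edgeR adjusted p = 1.00), with a 95% interval of -1.94 to 1.86 on the log2 scale. That fit shares 1 estimate of the spread over all 3 groups, rt-PA among them. Fitted to the 6 libraries compared alone, the difference was -0.04 (SE 0.26), with an interval of -0.67 to 0.60. The wide intervals from all 9 libraries come with a spread between libraries that was large for this gene. Its biological coefficient of variation in the edgeR fit was 0.66, higher than that of 94.6% of the tested genes and against a common value of 0.36. DESeq2, a test that estimates this spread differently, gave an adjusted p of 6.19e-05 for rt-PA against saline and 0.000102 for Nano-patrol+NIR against rt-PA. Without rt-PA 3, edgeR gave log2 fold changes of 4.44 for rt-PA against saline (adjusted p = 0.00032) and -4.49 for Nano-patrol+NIR against rt-PA (adjusted p = 0.00034). Those fits leave out the library that disagreed, which makes the remaining spread small.

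Hmox2, the constitutive enzyme of the same reaction, had no library that stood out in this way. It stood at 117, 106 and 78.5 CPM in the Nano-patrol+NIR libraries, at 99.3, 109 and 108 CPM in rt-PA, against 67.6, 118 and 103 CPM in saline. The lowest values were those of saline 1 and Nano-patrol+NIR 3, and the groups overlapped throughout. Means in CPM were 100.2 ± 19.6 with Nano-patrol+NIR, 106 ± 5.47 with rt-PA, and 95.9 ± 25.7 with saline (± SD, n = 3 each). The log2 fold change was 0.06 (SE 0.23) for Nano-patrol+NIR against saline, with a 95% interval of -0.45 to 0.58. It was 0.14 (SE 0.23) for rt-PA against saline, with an interval of -0.38 to 0.65. Between Nano-patrol+NIR and rt-PA it was -0.07 (SE 0.23), with an interval of -0.59 to 0.44. The edgeR adjusted p was 1.00, 0.795 and 0.91 in that order. Without saline 1 the values against saline turned to -0.12 for Nano-patrol+NIR and -0.03 for rt-PA, and without Nano-patrol+NIR 3 that against rt-PA turned to 0.05, again not called.

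The number of Hmox1 counts per 100 Hmox2 counts within a library needs no scaling between libraries, and can be set side by side between libraries though not read as a molar ratio, since gene length enters it. It was 5.76, 4.66 and 9.58 in Nano-patrol+NIR 1, 2 and 3. In rt-PA 1, 2 and 3 it was 125.5, 144 and 6.31. In saline 1, 2 and 3 it was 11.9, 4.98 and 5.67. Hmox1 counts thus exceeded Hmox2 counts in rt-PA 1 and rt-PA 2, and were below them in the other 7 libraries.

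**Figure D1:**
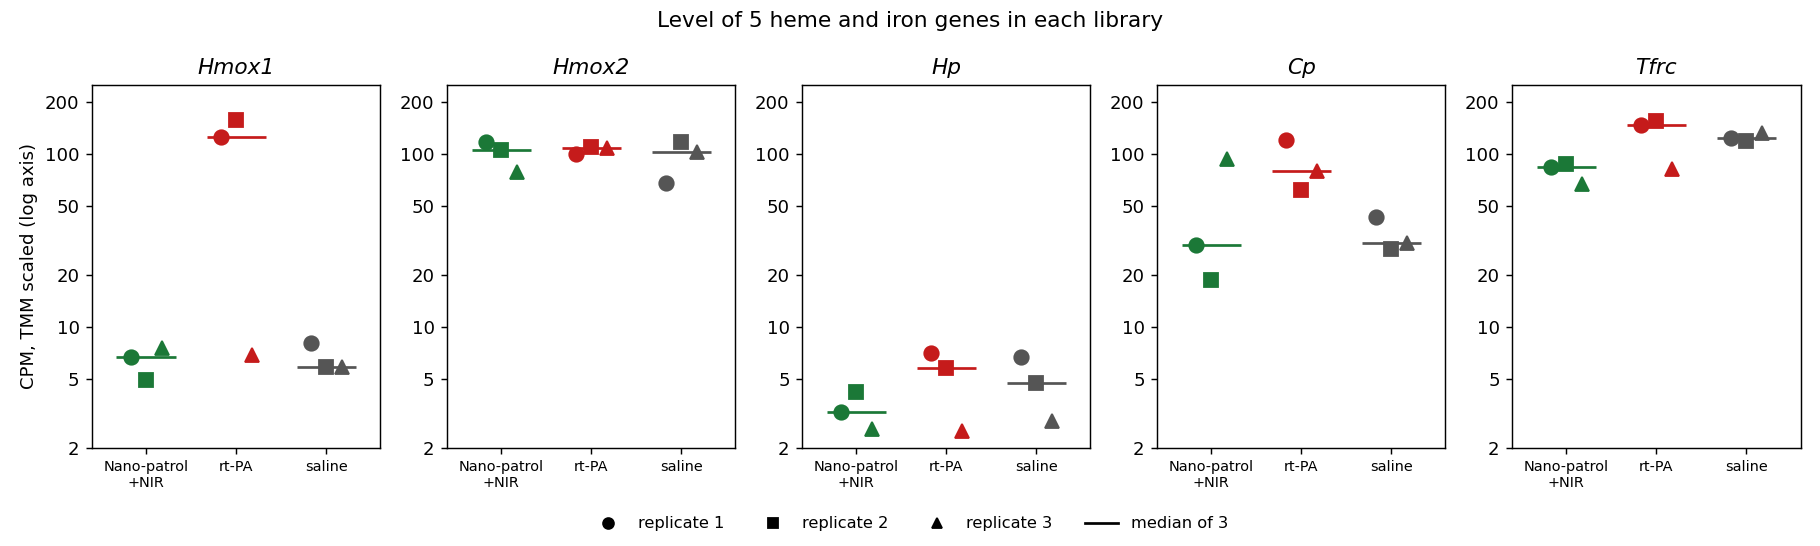
Level of Hmox1, Hmox2, Hp, Cp and Tfrc in each library, in CPM with TMM scaling on a log axis; each point is 1 library, its shape the replicate number, and the line the median of the 3 libraries of a group. Hmox1 stands at 125 and 157 CPM in rt-PA 1 and rt-PA 2 and between 4.93 and 8.08 CPM in the other 7 libraries.

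Haptoglobin, Hp, is made mainly by the liver and is also stored by neutrophils, and it was thinly counted here. It held 43, 55 and 37 counts in Nano-patrol+NIR, 91, 76 and 36 counts in rt-PA, and 98, 61 and 40 counts in saline. The ranges of all 3 groups overlapped. Means in CPM were 3.32 ± 0.80 with Nano-patrol+NIR, 5.11 ± 2.34 with rt-PA, and 4.73 ± 1.90 with saline (± SD, n = 3 each). Log2 fold changes were -0.51 (SE 0.45, edgeR adjusted p = 1.00) for Nano-patrol+NIR against saline and 0.11 (SE 0.45, edgeR adjusted p = 0.923) for rt-PA against saline. Set against rt-PA, Nano-patrol+NIR gave -0.62 (SE 0.45, edgeR adjusted p = 0.581). The 95% intervals on the log2 scale were -1.54 to 0.51 for Nano-patrol+NIR against saline, -0.91 to 1.12 for rt-PA against saline and -1.65 to 0.41 for Nano-patrol+NIR against rt-PA. Without saline 1 the Hp values against saline were -0.17 for Nano-patrol+NIR and 0.48 for rt-PA, and without rt-PA 3 the value of Nano-patrol+NIR against rt-PA was -0.99, none of them called. Without all 3 libraries that stood apart, Hp differed by -0.02 between Nano-patrol+NIR and saline.

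Tfrc, the receptor through which transferrin-bound iron is taken up, was lower in Nano-patrol+NIR than in saline in each library. It stood at 83.8, 86.8 and 66.7 CPM in the Nano-patrol+NIR libraries, at 147, 155 and 82.1 CPM in rt-PA, against 124, 118 and 133 CPM in saline. The Nano-patrol+NIR and saline groups did not overlap, and rt-PA spanned both, with rt-PA 3 at the level of Nano-patrol+NIR and rt-PA 1 and 2 above all saline libraries. Means in CPM were 79.1 ± 10.8 with Nano-patrol+NIR, 128 ± 40.0 with rt-PA, and 125 ± 7.13 with saline (± SD, n = 3 each). The log2 difference of Nano-patrol+NIR from saline was -0.66 (SE 0.24, unadjusted p = 0.0227, edgeR adjusted p = 0.758). Its difference from rt-PA was -0.70 (SE 0.24, unadjusted p = 0.0179, edgeR adjusted p = 0.271). Tfrc was lower with Nano-patrol+NIR in each of the 3 same-numbered pairs, though the labels do not say what a number shares. Across numbers the groups overlapped, as rt-PA 3 lay below Nano-patrol+NIR 1 and 2. The rt-PA and saline means differed by 0.04 (SE 0.24, edgeR adjusted p = 0.956). Fitted to the 6 libraries compared alone, Nano-patrol+NIR against saline gave -0.65 (SE 0.14, unadjusted p = 0.00294, edgeR adjusted p = 0.229). Nano-patrol+NIR against rt-PA gave -0.69 in its own such fit (SE 0.27, unadjusted p = 0.0381, edgeR adjusted p = 0.372). Without rt-PA 3, Tfrc passed the threshold for Nano-patrol+NIR against rt-PA, at -0.97 (edgeR adjusted p = 0.00616), and not for Nano-patrol+NIR against saline (-0.67, edgeR adjusted p = 0.107).

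Cp, the ferroxidase that aids iron export, was higher in rt-PA than in saline in each library. Its levels were 29.7, 18.5 and 93.3 CPM in the Nano-patrol+NIR libraries, 120.2, 61.9 and 79.7 CPM in rt-PA, and 43.2, 28.1 and 30.4 CPM in saline. The rt-PA and saline groups did not overlap. Nano-patrol+NIR was divided, with Nano-patrol+NIR 3 within the rt-PA range, Nano-patrol+NIR 1 within the saline range and Nano-patrol+NIR 2 below it. Means in CPM were 47.2 ± 40.4 with Nano-patrol+NIR, 87.3 ± 29.9 with rt-PA, and 33.9 ± 8.14 with saline (± SD, n = 3 each). The log2 difference of rt-PA from saline was 1.36 (SE 0.55, unadjusted p = 0.0361, edgeR adjusted p = 0.258), a 2.57-fold difference with a 95% interval of 1.08 to 6.12. It was 0.48 (SE 0.54, edgeR adjusted p = 1.00) for Nano-patrol+NIR against saline, and -0.89 (SE 0.54, edgeR adjusted p = 0.512) for Nano-patrol+NIR against rt-PA. Fitted to the 6 libraries compared alone, rt-PA against saline gave 1.36 (SE 0.30, unadjusted p = 0.00325, edgeR adjusted p = 0.208). In such fits the SE was 0.59 for Nano-patrol+NIR against saline and 0.61 for Nano-patrol+NIR against rt-PA. Without Nano-patrol+NIR 3 the Nano-patrol+NIR value against saline turned to -0.50, and that against rt-PA was -1.89, neither of them called.

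Cp and Tfrc were the members in which all libraries of a treated group lay outside the saline range, and the 250 bases before their transcription starts are shown for that reason. Such a lack of overlap was common among all tested genes. It was found in 19.5% of them for rt-PA against saline and in 14.5% for Nano-patrol+NIR against saline. It is therefore not read as a result about these genes. The sequences are from RefSeq on the GRCr8 build, which is not stated to be the build of the counts, and read 5′ to 3′ on the gene's strand. Of the 6 members, 3 had an entry in the promoter table, Hmox2, Cp and Tfrc; Hmox1, Hp and Fth1 had none. Capitals mark ACGTG, a form of the core that hypoxia-inducible factors bind, on either strand, and no other form of that core was searched.
Tfrc, chr11:81690319-81690568, minus strand: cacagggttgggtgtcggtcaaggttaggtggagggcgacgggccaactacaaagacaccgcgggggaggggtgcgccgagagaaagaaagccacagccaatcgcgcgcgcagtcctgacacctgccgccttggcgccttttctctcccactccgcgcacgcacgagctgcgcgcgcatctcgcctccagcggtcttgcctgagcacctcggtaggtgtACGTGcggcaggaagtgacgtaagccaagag
Cp, chr2:104368420-104368669, plus strand: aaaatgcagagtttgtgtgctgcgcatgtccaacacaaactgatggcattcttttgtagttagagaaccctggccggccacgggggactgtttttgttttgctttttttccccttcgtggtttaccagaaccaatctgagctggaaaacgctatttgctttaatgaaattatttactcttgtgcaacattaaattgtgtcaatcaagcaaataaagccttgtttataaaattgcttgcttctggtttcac
The Tfrc window held 1 ACGTG, starting 31 bases before the transcription start, and the Cp window held 0. Hmox2, with 2 listed starts, held 1 in the window of one start and 0 in that of the other. ACGTG or its reverse complement CACGT was in 16.6% of the 33469 windows of this length. The antioxidant response letters TGACNNNGC, searched on both strands, were in 10.1% of windows, among them 1 of the Hmox2 windows and neither the Tfrc nor the Cp window. TGANTCA, the AP-1 letters, were in 6.34% of windows and in 0 windows of these 3 genes. Such matches describe the letters and were not tested for use by any factor.

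Fth1, the ferritin heavy chain, which nearly all cells express strongly, was listed at 0 counts in each of the 9 libraries. It could therefore not be tested, and the other 5 members passed the filter on low counts. A count of 0 allows at most 3 counts, or 0.204 to 0.232 CPM depending on the library. The row therefore gives no measure of ferritin expression, and how reads of this gene were assigned was not tested. The reference gene table lists 5 Fth1 pseudogenes, whose sequence can be close enough to share reads, and 1 pseudogene of Hmox2. It lists 0 under the same naming for Hmox1, Hp, Cp and Tfrc. In all, 9763 of the 32623 genes had no count in any library.

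**Figure D2:**
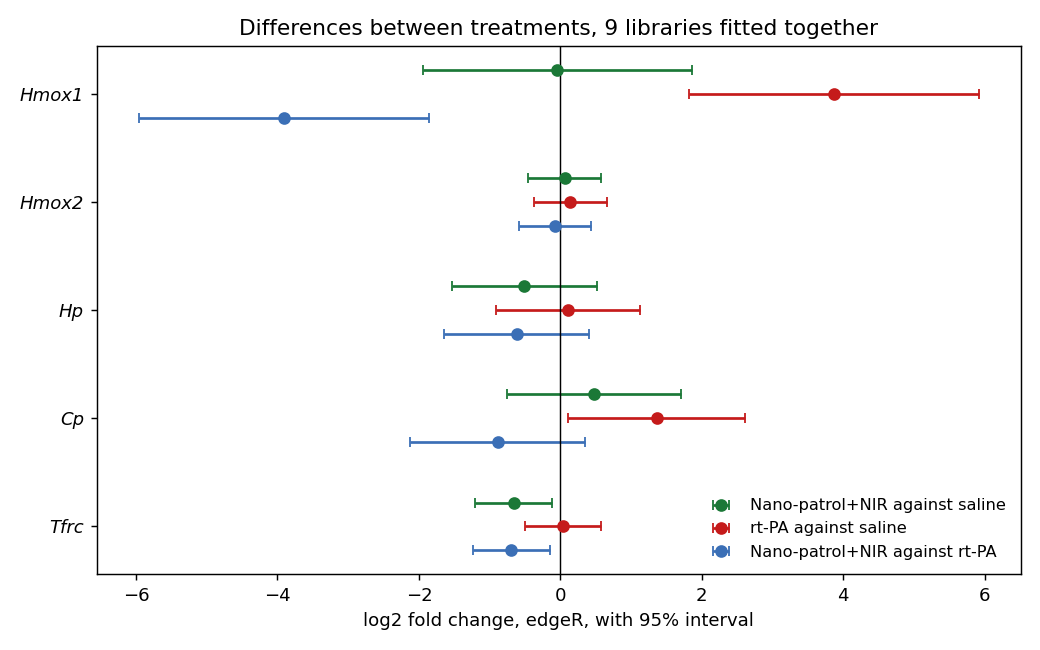
Log2 fold changes of 5 genes in the 3 comparisons, from edgeR fitted to all 9 libraries; points are estimates and bars 95% intervals before adjustment for multiple tests. Hmox1 lies at 3.87 for rt-PA against saline and -3.91 for Nano-patrol+NIR against rt-PA, with the widest intervals, and Hmox2 lies near 0 in all 3.

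Read against all genes, the counts of members were as follows. For rt-PA against saline 0 of 5 tested members were called by edgeR, beside 1 of 15402 genes (0.00649%). At an unadjusted p under 0.05 there were 2 members, Hmox1 and Cp, beside 17% of all genes. Libraries of the groups did not overlap in 1 member, Cp, beside 19.5% of genes. With DESeq2 the member called was Hmox1, 1 of 5, beside 6.9% of all genes. The share of small p-values across the genome was large in this comparison, and counts of 1 or 2 among 5 members are not read as a result about the group. The median log2 fold change of the 5 members was 0.14, and that of all tested genes -0.01.

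For Nano-patrol+NIR against saline, which shares its saline libraries with the comparison above, edgeR called 0 of 5 members, beside 1 gene of all tested (0.00649%), and DESeq2 called 0, beside 0.857%. Tfrc was the 1 member with an unadjusted p under 0.05, beside 5.89% of genes. It was also the 1 member without overlap, beside 14.5% of genes. The members' median log2 fold change was -0.04, against -0.01 over all genes.

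Between Nano-patrol+NIR and rt-PA edgeR called 0 of 5 members, beside 0 of 15402 genes (0%). Hmox1 and Tfrc had an unadjusted p under 0.05, beside 13.8% of genes. No member was without overlap, a count of 0, beside 17.4% of genes. DESeq2 called 1 member, Hmox1, beside 4.07% of genes. All 5 tested members were estimated lower with Nano-patrol+NIR than with rt-PA, with a median of -0.70 against 0.02 over all genes. Hmox2 was among them at -0.07 (SE 0.23), and the shared direction is not read as a result about the group.

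The test of any difference among the groups called 0 of 5 members with edgeR, beside 0.00649% of genes. At an unadjusted p under 0.05 it held 2 members, Hmox1 (edgeR adjusted p = 0.111) and Tfrc (edgeR adjusted p = 0.299), beside 14.7% of genes. DESeq2 called Hmox1 alone among the members in this test (adjusted p = 4.35e-06), beside 7.08% of genes.

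The calls changed when rt-PA 3 was left out. Without rt-PA 3, edgeR called 1 member for rt-PA against saline, Hmox1, beside 13.5% of all genes. Between Nano-patrol+NIR and rt-PA it called 2, Hmox1 and Tfrc, beside 13.1%. It called 0 for Nano-patrol+NIR against saline, beside 0.223%, and 2 for any difference, again Hmox1 and Tfrc, beside 12.1%. Leaving out any other single library gave no member call in any comparison. With 1 library of each group taken out, namely saline 1, rt-PA 3 and also Nano-patrol+NIR 3, an alternative chosen after the data were seen, edgeR called 4 members for rt-PA against saline, all tested ones but Hmox2, beside 43.8% of genes. Their log2 fold changes were 4.64 for Hmox1, 0.82 for Hp, 1.69 for Cp and 0.32 for Tfrc. In that fit Nano-patrol+NIR against saline called Tfrc alone among the members, at -0.55, beside 3.27% of genes. Nano-patrol+NIR against rt-PA called 4, beside 40.5%, at -4.63 for Hmox1, -0.84 for Hp, -1.96 for Cp and -0.87 for Tfrc. Any difference was called for 3, Hmox1, Cp and Tfrc, beside 45.3%. Since the library least like its group was taken out of each, the spread is too small by construction, and so are these p-values.

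**Figure D3:**
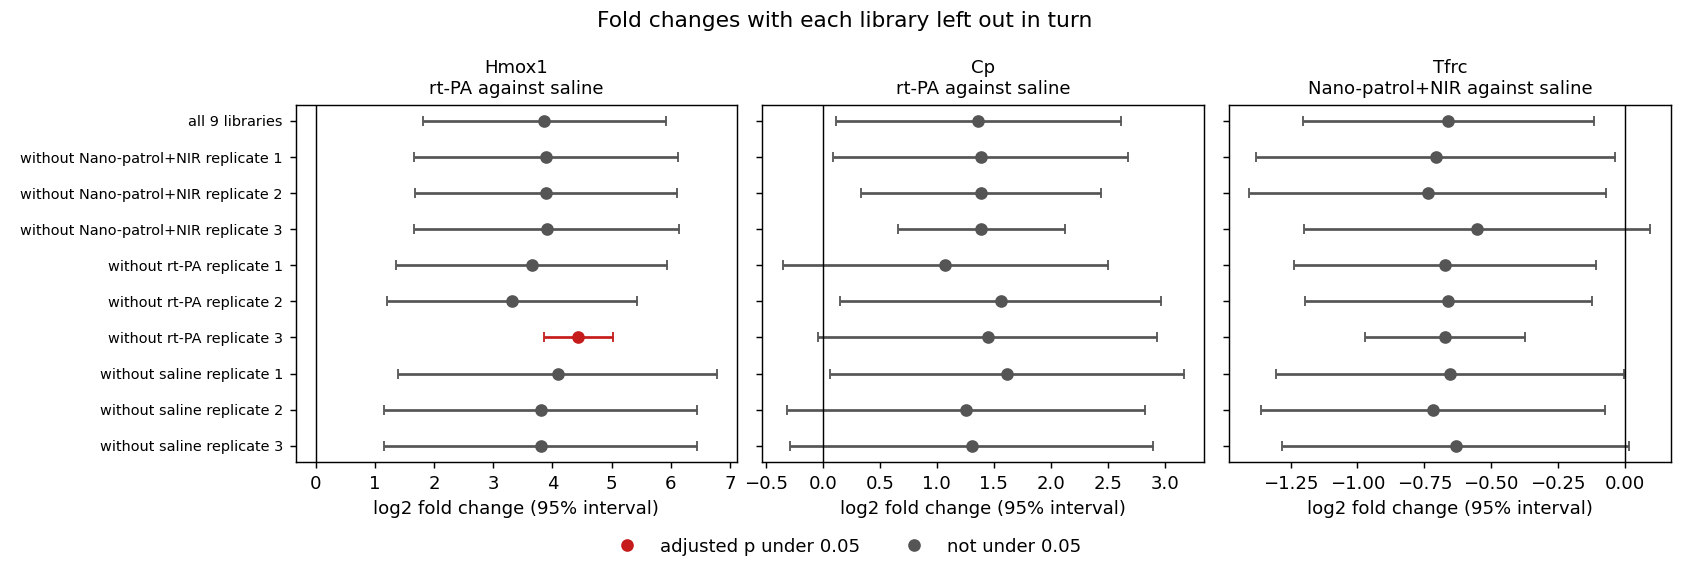
Log2 fold changes of Hmox1 and Cp for rt-PA against saline and of Tfrc for Nano-patrol+NIR against saline, from all 9 libraries and with each library left out in turn; bars are 95% intervals and red marks an edgeR adjusted p under 0.05. Hmox1 is called without rt-PA 3 alone, at 4.44, and Cp and Tfrc in none of these fits.

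The spread among libraries of a group was itself uneven. For Hmox1 the highest library exceeded the lowest by 1.52 times in Nano-patrol+NIR, 23 times in rt-PA and 1.39 times in saline. Of 11861 genes averaging at least 5 CPM, 70 genes (0.59%) had a ratio that large or larger within rt-PA. Cp spread 5.04 times within Nano-patrol+NIR, which 163 of these genes (1.37%) reached, against 1.94 times within rt-PA and 1.54 times within saline. Hmox2 had a ratio of 1.10 in rt-PA, and 93.6% of genes had at least that. Tfrc spread 1.301 times in Nano-patrol+NIR, 1.89 times in rt-PA and 1.12 times in saline.

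**Figure D4:**
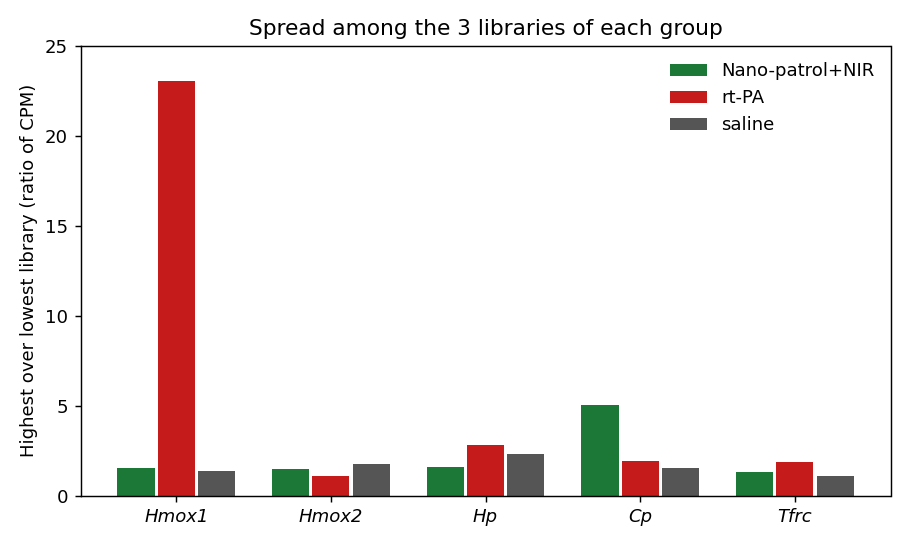
Highest over lowest library within each group, as a ratio of CPM, for 5 genes. The Hmox1 bar of rt-PA reaches 23 and the Cp bar of Nano-patrol+NIR 5.04, and the other bars lie between 1.10 and 2.81.

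The gene with the pattern most like that of Hmox1 over the 9 libraries, by Pearson correlation of log2 CPM among genes averaging at least 5 CPM, was ENSRNOG00000019742 (r = 0.996, Spearman's rho = 0.867). It stood at 86.9, 74.1 and 84.4 CPM in the Nano-patrol+NIR libraries, at 327, 374.5 and 99.1 CPM in rt-PA, against 90.8, 86.1 and 83.0 CPM in saline. Without rt-PA 1 and rt-PA 2 the coefficient was 0.682 over 7 libraries, so the likeness rested mostly on those 2. For Cp the gene was ENSRNOG00000048433 (r = 0.96, rho = 0.983), at 34.5, 31.7 and 131.6 CPM in the Nano-patrol+NIR libraries, 181, 73.6 and 74.0 CPM in rt-PA, and 52.6, 32.6 and 33.2 CPM in saline. Without rt-PA 1 and rt-PA 2 the coefficient for Cp was 0.944. Nano-patrol+NIR 3 and rt-PA 3, in which Cp was also high, stayed in, and no coefficient was computed without them. The highest coefficients for Hmox2, Hp and Tfrc were 0.991, 0.953 and 0.98. Each is the highest among 11861 genes, and all are given as descriptions, without a test, and no symbol is paired with either identifier.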

How the data were processed

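RNA was sequenced from rat brain, 3 libraries per treatment, after poly(A) selection per the labels' protocols. The authors deposited raw read counts per Ensembl gene and library. StringTie 1.3.1, HISAT2, Bowtie2 2.2.8 and fastp 0.18.0 were used, per the submitters' processing notes. How counting was done, the strand setting, genome build and annotation are not given in the sources used, so reads of overlapping or near-identical genes cannot be told apart. At totals of 13059048 to 14992109 counts, counting error weighs most for Hp (36 to 98 counts a library). It also does for Hmox1 outside rt-PA 1 and rt-PA 2 (65 to 119 counts). Floors cover counting error only. Nothing in the labels ties the libraries of a group to separate animals, and p-values then measure only how these samples spread, which may be technical.

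Columns were matched to samples by their descriptions. Counts were fitted in R 4.3.3 with edgeR 4.0.16 (filterByExpr, TMM, robust quasi-likelihood, 1 mean per group, 6 residual degrees of freedom before moderation). Adjustment was by Benjamini-Hochberg over 15402 tested genes, and genes with an adjusted p under 0.05 were called. Standard errors are the log2 fold change over the square root of F. Alternatives were DESeq2 1.42.0, limma-voom (limma 3.58.1), other scalings and filters, subsets of libraries and a replicate block. The main fit took no samples as paired, and the replicate block was run only as an alternative. The criterion for pairing by replicate number was a correlation over 0.1, between deviations from group means, in all 3 same-numbered pairs. This held for Nano-patrol+NIR and rt-PA (0.113 to 0.278), and not for rt-PA and saline (-0.185 to 0.203) or Nano-patrol+NIR and saline (-0.362 to 0.228). Deviations within a group sum to 0, so the 3 pairs are not independent. The libraries that stood apart were Nano-patrol+NIR 3, rt-PA 3 and saline 1. Meeting the criterion therefore does not show that same-numbered libraries were paired. The labels do not say what a number shares. Log2 CPM used a prior count of 2.

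The members, lists and tests were chosen with earlier results of these data known. Named genes are the 6 members and the gene of most like pattern for each, printed for Hmox1 and Cp. Lists of other heme and iron genes and of cell type markers, written as symbols, could not be matched to identifiers and are not reported.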

Additional observations from a re-analysis of the deposited data

How the results depend on the processing

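With edgeR rt-PA against saline had 1 gene called of all tested, Nano-patrol+NIR against saline likewise 1, its comparison with rt-PA 0, a difference of any kind 1, and members 0 in each. In the same order DESeq2 called 1062, 132, 627 and 1090 genes and 1, 0, 1 and 1 members, the member being Hmox1. limma-voom called 0, 0, 1 and 0 genes and 0 members; at an unadjusted p under 0.05 it had 2384, 782, 1897 and 1975 genes. Without a filter on low counts any difference called 3 genes. Only the 6 libraries compared gave 0, 3 and 0 genes. Leaving out saline 1, rt-PA 3 and also Nano-patrol+NIR 3 the genes numbered 6710, 501, 6195 and 6932 and the members 4, 1, 4 and 3. Scaling by relative log expression or by totals alone, and a filter of 1 CPM in 3 libraries, left all these counts as they were.

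Leaving out 1 library at a time gave 0 to 2112, 0 to 35, 0 to 2047 and 1 to 1893 genes, each highest without rt-PA 3, and 0 to 1, 0 to 0, 0 to 2 and 0 to 2 members. Log2 fold changes for rt-PA against saline ranged over 3.32 to 4.44 (Hmox1), -0.0257 to 0.33 (Hmox2), -0.18 to 0.48 (Hp), 1.07 to 1.61 (Cp) and -0.12 to 0.30 (Tfrc). For Nano-patrol+NIR against saline they ranged over -0.18 to 0.14 (Hmox1), -0.12 to 0.22 (Hmox2), -0.80 to -0.17 (Hp), -0.50 to 0.86 (Cp) and -0.74 to -0.55 (Tfrc). Between Nano-patrol+NIR and rt-PA they ranged over -4.49 to -3.36, -0.23 to 0.0452, -0.99 to -0.35, -1.89 to -0.52 and -0.97 to -0.54 for the same genes.

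The replicate block gave 0, 0, 0 and 1 genes and 0 members; 2279, 741, 1865 and 1846 genes had an unadjusted p below 0.05. For Nano-patrol+NIR against rt-PA, where the numbers met the criterion for pairing, the block fitted to those 6 libraries alone, chosen after seeing the data, called 0 genes and 0 members, with 2191 genes at an unadjusted p under 0.05. Hmox1 was then -3.26 (edgeR adjusted p = 0.334) and Tfrc -0.65 (edgeR adjusted p = 0.282). The replicate block changed no call of a member.

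Hmox1 was called in 3 of 18 alternatives for rt-PA against saline (adjusted p 6.23e-07 to 0.322) and in 3 of 19 for Nano-patrol+NIR against rt-PA (7.27e-07 to 0.573), and kept its direction in all of them. Cp for rt-PA against saline and Tfrc for Nano-patrol+NIR against saline kept theirs in all 18 and were called in 1. The sign turned in some alternatives for Hmox2, for Hp and Tfrc between rt-PA and saline, and for Hmox1 and Cp between Nano-patrol+NIR and saline, none of them called with all 9 libraries. Tfrc for rt-PA against saline was -0.0139 with limma-voom and -0.0152 with the replicate block, and Hmox1 for Nano-patrol+NIR against saline was 0.0424 with the block. Without the 3 libraries that stood apart Hmox2 was -0.0296 for rt-PA against saline and 0.0501 for Nano-patrol+NIR against rt-PA, and for Nano-patrol+NIR against saline Hmox1 was 0.0031 and Cp -0.27. Their cause was not tested, apart from the smaller spread that follows from leaving out unlike libraries. Under every setting run, the median change over all genes stayed within 0.063 of 0 on the log2 scale. Scaling factors bring most genes near 0 by construction, so that median is no test of a shift over all genes. With library totals alone, it was -0.01 for rt-PA against saline, 0.02 for Nano-patrol+NIR against saline and 0.05 for Nano-patrol+NIR against rt-PA. Scaling by totals sets every library to the same sum, so a shift over all genes could not be seen there either. Counts were lowest for Hp and, in 7 libraries, for Hmox1, so counting error weighs most there. Their spread between libraries was large too, with biological coefficients of variation of 0.40 and 0.66 against a common value of 0.36.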
